A study of Mus musculus with 12 samples.

Results

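A set of 9 of the 19268 genes in a table of normalized counts was followed across the forebrain of juvenile and adult mice: Pvalb, Gad1, Gad2, Slc32a1, Lhx6, Kcnc1, Kcnc2, Syt2 and Erbb4. They were chosen by symbol, as genes of GABA synthesis and release and of parvalbumin interneurons, and each symbol matched 1 Ensembl identifier. The tissue was forebrain without the olfactory bulb, from males of the C57BL/6J strain aged 25 (P25) or 60 (P60) postnatal days, and its RNA was sequenced. The mice were wild-type (WT) or homozygous knock-outs (KO) that lack internal exons of Shank3, the gene of an excitatory postsynaptic scaffold. There were 3 libraries, each from its own mouse, in each of the groups P25-WT, P25-KO, P60-WT and P60-KO. No allele other than Shank3 and no treatment was described for any group.

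Parvalbumin interneurons are inhibitory neurons that fire fast, brief action potentials and contact the cell body and the axon start of their targets. They make GABA from glutamate with the glutamate decarboxylases encoded by Gad1 and Gad2, and load it into synaptic vesicles with the transporter encoded by Slc32a1. Pvalb encodes the calcium buffer that gives the cells their name, Lhx6 a transcription factor of interneurons born in the medial ganglionic eminence, Kcnc1 and Kcnc2 the Kv3 potassium channels that end each spike quickly, Syt2 a fast calcium sensor of release, and Erbb4 a neuregulin receptor. In whole forebrain, Gad1, Gad2 and Slc32a1 are shared by all GABA neurons, including the projection neurons of the striatum, and Kcnc1, Kcnc2 and Syt2 are also used by other neurons. In such bulk tissue, fewer cells of a type and less RNA per cell cannot be told apart.

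The positions are those of GENCODE M21 on GRCm38, and all 9 genes are protein-coding. Gad1 (ENSMUSG00000070880, chr2:70553072-70602014), Gad2 (ENSMUSG00000026787, chr2:22622205-22693874) and Slc32a1 (ENSMUSG00000037771, chr2:158610767-158615748) lie on the plus strand of chromosome 2. Lhx6 (ENSMUSG00000026890, chr2:36081953-36105408) is on the minus strand of the same chromosome. Pvalb (ENSMUSG00000005716, chr15:78191114-78206400) and Erbb4 (ENSMUSG00000062209, chr1:68032186-69108059) are on the minus strand. Kcnc1 (ENSMUSG00000058975, chr7:46396497-46438704), Kcnc2 (ENSMUSG00000035681, chr10:112271121-112467024) and Syt2 (ENSMUSG00000026452, chr1:134646677-134762593) are on the plus strand. An exon of Slc32a1 overlaps the antisense gene Gm14205, and whether the quantification used strand is not given in the sources used here. An exon of Lhx6 overlaps Gm27953 on the same strand, where strand cannot tell the reads apart. The values of these 2 genes are uncertain to that extent. Of the 31-base words in Gad1 transcripts, 3.97% also occur in other genes, among them the pseudogene Gad1-ps.

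Promoter sequences are shown for the GABA synthesis and loading genes and for the Kv3 pair, because their counts are set against each other as ratios within each library. They are RefSeq windows of up to 250 bases before a transcript start on GRCm38.p6, plus strand, written 5′ to 3′. The windows of Gad1 and Gad2 were shortened to the bases outside annotated exons. Capitals mark, on either strand, the TATA box word TATAAA, the GC box word GGGCGG, the CCAAT box, the cyclic AMP response word TGACGTCA or the E-box CAGATG, and no marked words overlap.
Gad1, chr2:70561879-70562041: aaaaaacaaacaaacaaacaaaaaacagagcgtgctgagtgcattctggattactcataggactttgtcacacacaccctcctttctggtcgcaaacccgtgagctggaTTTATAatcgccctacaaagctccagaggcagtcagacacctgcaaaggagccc
Gad2, chr2:22622077-22622204: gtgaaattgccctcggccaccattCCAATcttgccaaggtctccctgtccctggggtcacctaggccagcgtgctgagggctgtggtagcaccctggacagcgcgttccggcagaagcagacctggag
Slc32a1, chr2:158610508-158610757: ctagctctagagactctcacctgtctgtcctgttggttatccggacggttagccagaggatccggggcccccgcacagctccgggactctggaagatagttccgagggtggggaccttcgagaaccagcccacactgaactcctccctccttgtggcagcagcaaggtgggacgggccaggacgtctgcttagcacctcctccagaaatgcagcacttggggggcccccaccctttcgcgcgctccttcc
Kcnc1, chr7:46396218-46396467: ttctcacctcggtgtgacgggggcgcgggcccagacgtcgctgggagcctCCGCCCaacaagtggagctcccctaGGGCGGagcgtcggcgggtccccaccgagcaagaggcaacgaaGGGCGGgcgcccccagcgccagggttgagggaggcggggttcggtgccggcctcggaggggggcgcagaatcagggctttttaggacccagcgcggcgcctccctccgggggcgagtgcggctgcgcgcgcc
Kcnc2, chr10:112270871-112271120: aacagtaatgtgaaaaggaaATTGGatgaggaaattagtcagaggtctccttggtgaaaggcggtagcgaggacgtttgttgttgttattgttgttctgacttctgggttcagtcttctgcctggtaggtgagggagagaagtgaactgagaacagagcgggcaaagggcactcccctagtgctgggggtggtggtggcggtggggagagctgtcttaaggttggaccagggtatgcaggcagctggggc

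The printed Gad1 stretch held 1 TATAAA, on the minus strand, a word found in 12.4% of 32841 RefSeq windows of 250 bases. The Gad2 stretch held 1 CCAAT and the Kcnc2 window 1 CCAAT on the minus strand, and 33.9% of windows held that word. The Kcnc1 window held 3 copies of GGGCGG, counted over both strands, which 32.7% of windows held at least once. The Slc32a1 window held none of the 5 words searched, and the words TGACGTCA, found in 1.5% of windows, and CAGATG, found in 14.4%, were in none of the printed stretches. The bases cut from the Gad1 window held 1 GGGCGG and those cut from the Gad2 window 1 CAGATG, both on the minus strand. The printed Gad1 and Gad2 stretches are shorter than the windows behind these shares. Kcnc1 had 30 CpG dinucleotides in its window, Slc32a1 12 and Kcnc2 5, where the median over all windows was 6. These words are descriptions of the sequence and were not tested for binding.

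Shank3, the targeted gene, was at 4535 to 5729 normalized counts in the 6 KO libraries and at 8936 to 11683 in the 6 WT libraries, so every KO library lay below every WT library. The library totals were 30568259 to 32348554 normalized counts after the authors' normalization, and the reads behind each value are unknown. P25-WT replicate 2 stood farthest from its group, with a root mean square log2 difference from its group mates of 0.463, against 0.344 to 0.422 in the other 11 libraries. Tbr1, a transcription factor of forebrain excitatory neurons, had group means of 2623 to 2899. The summed level of 7 cerebellum markers was 2829 in P60-WT replicate 2 and 1515 in P60-KO replicate 1, and 810 to 1367 in the others. The cerebellar genes Cbln3 and Gabra6 had means of 216 and 74.0 in P60-WT and of 58.8 and 24.3 in P60-KO. At P25 their means were 12.4 and 0.657 in WT and 18.4 and 0.782 in KO. Cerebellar neurons also use Pvalb, Kcnc1 and Syt2, and these genes are used in the brainstem too. Of 8 markers of brainstem and spinal cord, 4 were in the table, and their summed level was 949 in P60-WT replicate 2, 928 in P60-KO replicate 1 and 326 to 819 in the others. The glycine transporter gene Slc6a5 was higher with age in KO mice (log2 fold change 2.22 ± 0.64, SE, adjusted p = 0.0342, limma), although its libraries of both ages overlapped, and 0 of these markers were called with age in WT mice or over both genotypes. Values of Pvalb, Kcnc1 and Syt2 are therefore also given with each of these P60 libraries left out in turn, but not with both left out together. The part of these markers was not tested further.

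**Figure D1:**
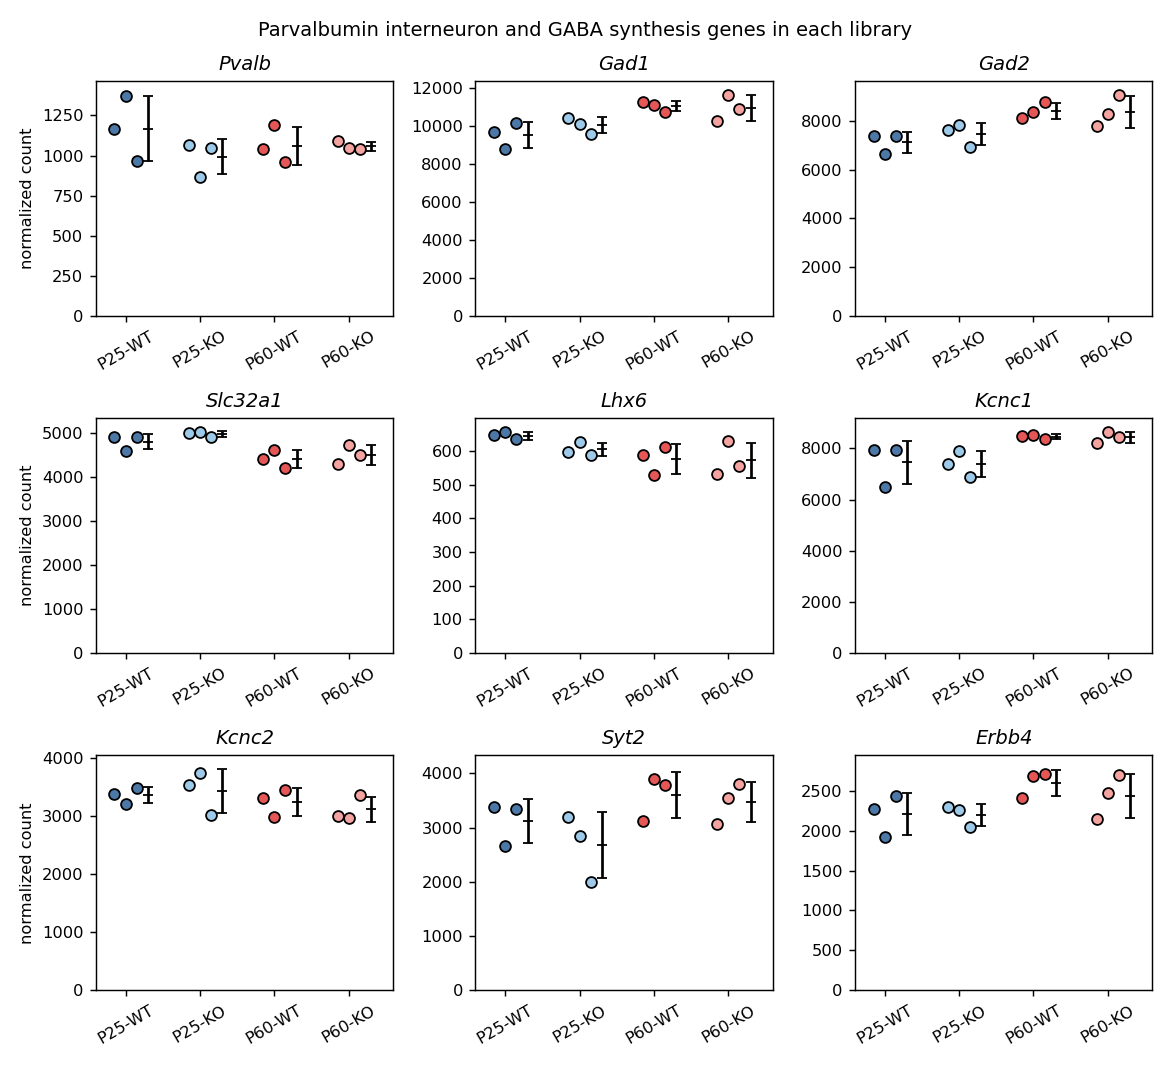
Normalized count of each of the 9 genes (vertical axis, from 0) in each library of the 4 groups (points, replicates 1 to 3 from left to right), with the group mean and SD as a bar to the right of the points. For Kcnc1, the 6 P60 libraries lay between 8216 and 8619, above all 6 P25 libraries, while the Pvalb values of the 2 ages were interleaved.

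Normalized counts are not corrected for gene length, so levels of different genes were compared only after division by the length of the exons of each gene. Per kilobase of exon, Slc32a1 was first at 1673 ± 101 normalized counts (SD, n = 12 libraries), followed by Gad1 at 1358 ± 105, Gad2 at 1335 ± 122, Pvalb at 1028 ± 123 and Kcnc1 at 838 ± 72.6. Kcnc2 at 460 ± 35.4, Syt2 at 421 ± 71.3, Erbb4 at 191 ± 20.7 and Lhx6 at 125 ± 8.99 came last. The first 5 were not separated from their neighbours in this order, with ranges of 1506 to 1796 for Slc32a1, 1146 to 1522 for Gad1, 1128 to 1542 for Gad2, 835 to 1316 for Pvalb and 685 to 911 for Kcnc1. Kcnc2 (416 to 524) and Syt2 (261 to 511) also overlapped. When the longest coding transcript was used for the length instead, Gad1 moved to first place at 3092, the others kept their order, and Kcnc2 (588 to 741) and Syt2 (290 to 567) no longer overlapped.

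The comparison of P60 with P25 asked how these transcripts changed between the juvenile and the adult forebrain. Over both genotypes, 6 of the 9 genes changed: Gad1, Gad2, Kcnc1, Syt2 and Erbb4 were higher at P60, by 1.12- to 1.23-fold, and Slc32a1 was lower, at 0.911 times its P25 level. Pvalb, Lhx6 and Kcnc2 did not pass the threshold. Of all 17594 genes tested, 37.6% passed the same threshold (18.3% higher and 19.3% lower), and among genes with a mean of at least 500 it was 48.4%, so changes with age were common in this table. The call was an adjusted p-value under 0.05 from limma with age and genotype as terms, adjusted by Benjamini-Hochberg over all genes tested, on log2(value + 1). When each library was scaled to the same total, the median gene shifted by 0.05 on the log2 scale and the split of all calls went from 3219 higher and 3397 lower to 4038 higher and 2730 lower. Under that scaling the same 5 genes were higher and Slc32a1 was not called. With a dependence on transcript length and GC content removed from each library, 3 of the 6 calls were lost, those of Gad2, Erbb4 and Slc32a1, and the calls of Gad1, Kcnc1 and Syt2 were kept.

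Markers of several other cell types moved with age as well. All 8 oligodendrocyte markers were lower at P60, and their summed level was 409881 to 533442 in the P25 libraries and 200820 to 227983 in the P60 libraries. Of the astrocyte markers, 6 of 8 were lower, and of the oligodendrocyte precursor markers 6 of 6. The 10 markers of striatal projection neurons, which carry much of the GABA synthesis of the forebrain, had 1 higher and 2 lower, with summed levels of 42481 to 47181 at P25 and 40303 to 43891 at P60. Of the 8 markers of glutamatergic neurons, 1 was higher and 4 were lower, among them the vesicular glutamate transporter gene Slc17a7 at −0.33 ± 0.03 (SE, adjusted p = 3.44e-06, limma) and Nrgn, a postsynaptic calmodulin-binding protein, at −0.45 ± 0.05 (adjusted p = 1.46e-05). Their summed level was 156167 to 165307 at P25 and 135198 to 140659 at P60, without overlap. Under scaling to the same total, 1 of these 8 was higher and 2 were lower. With the length and GC trend removed, 1 was higher and 3 were lower, with Slc17a7 at −0.21 and Nrgn at −0.25. The part of these markers in the age results was not tested.

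Gad1, which encodes the decarboxylase found throughout the cell, was at 9691, 8754 and 10122 in P25-WT and at 10404, 10083 and 9587 in P25-KO. At P60 it was at 11266, 11076 and 10738 in WT and at 10266, 11623 and 10887 in KO. Only P60-KO replicate 1 lay below the highest P25 library. The log2 fold change of P60 against P25 was 0.17 ± 0.05 (SE, adjusted p = 0.00961, limma), and the exact permutation test within genotypes gave p = 0.0100 (two-sided, 400 arrangements, smallest possible 0.00500).

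Gad2, the decarboxylase concentrated in nerve terminals, was at 7391, 6628 and 7369 in P25-WT and at 7650, 7820 and 6939 in P25-KO. It was at 8113, 8364 and 8766 in P60-WT and at 7779, 8276 and 9061 in P60-KO. Again all but P60-KO replicate 1 exceeded every P25 library, with a log2 fold change of 0.20 ± 0.05 (SE, adjusted p = 0.00523, limma). With the length and GC trend removed it was 0.07 and was not called (adjusted p = 0.124, limma).

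Slc32a1, the vesicular GABA transporter, was called lower in the deposited values. It was at 4905, 4604 and 4916 in P25-WT, at 5013, 5023 and 4912 in P25-KO, at 4413, 4612 and 4213 in P60-WT and at 4289, 4734 and 4505 in P60-KO. Of the P60 libraries, 4 of 6 lay below all P25 libraries, and the other two overlapped the lowest of them, P25-WT replicate 2. The log2 fold change was −0.13 ± 0.04 (SE, adjusted p = 0.0142, limma). The call did not hold with libraries scaled to the same total (−0.09, adjusted p = 0.0982, limma) or with the length and GC trend removed, where the value was 0.01 (adjusted p = 0.879).

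Because the GABA synthesis genes and the transporter gene were called in opposite directions, their ratio within each library was computed, which was decided after the values had been seen and is given without a test. The ratio of Gad1 to Slc32a1 normalized counts was 1.90 to 2.08 at P25 and 2.39 to 2.55 at P60, and that of Gad2 to Slc32a1 was 1.41 to 1.56 and 1.75 to 2.08. The ages did not overlap in either ratio of the deposited values, which follows in part from the choice of genes called in opposite directions. How many pairs of other genes separate in this way was not computed. The log2 fold changes behind these ratios were closer together when the dependence on transcript length and GC content was removed, at 0.12 for Gad1, 0.07 for Gad2 and 0.01 for Slc32a1. The ratio of Gad1 to Gad2 was 1.29 to 1.38 at P25 and 1.20 to 1.40 at P60, and these overlapped.

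**Figure D2:**
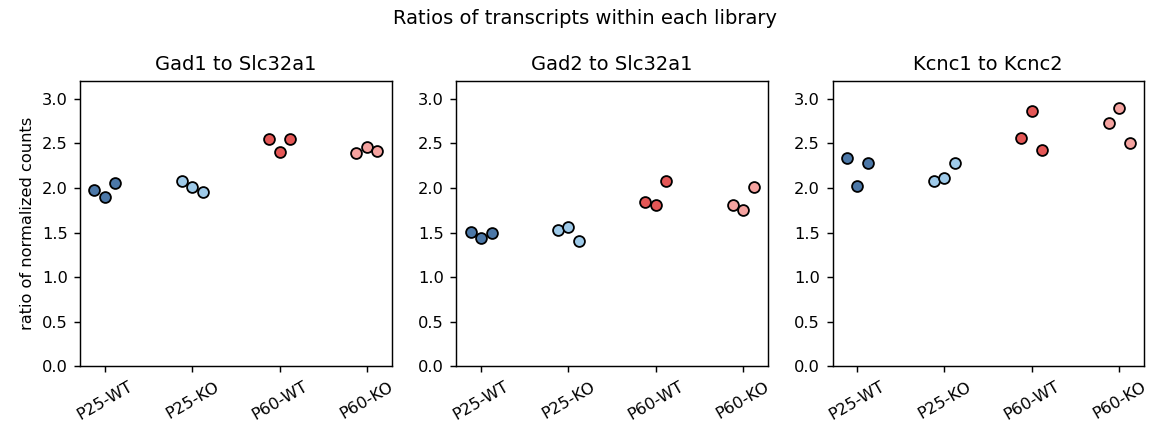
Ratio of the deposited normalized counts of 2 genes within each library (vertical axis, from 0) for Gad1 to Slc32a1, Gad2 to Slc32a1 and Kcnc1 to Kcnc2, with 1 point per library in the 4 groups. In each ratio the 6 P60 libraries lay above the 6 P25 libraries, in WT and in KO mice alike. The pairs were chosen after the values had been seen, and how many other pairs separate in this way was not computed.

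The Kv3 channel genes were compared in the same way. Kcnc1 was at 7920, 6480 and 7949 in P25-WT, at 7381, 7889 and 6880 in P25-KO, at 8486, 8527 and 8352 in P60-WT and at 8216, 8619 and 8455 in P60-KO. It was the only one of the 9 genes whose P60 libraries all lay above all P25 libraries, which 8.79% of all genes tested did. The log2 fold change was 0.19 ± 0.05 (SE, adjusted p = 0.00958, limma), without P60-WT replicate 2 it was 0.19 (adjusted p = 0.0198, limma), and without P60-KO replicate 1 it was 0.20 (adjusted p = 0.0148).

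Kcnc2 was at 3383, 3205 and 3481 in P25-WT, at 3540, 3740 and 3015 in P25-KO, at 3309, 2981 and 3440 in P60-WT and at 3004, 2967 and 3364 in P60-KO. The ages overlapped, and the log2 fold change of −0.09 ± 0.06 (SE) did not pass the threshold (adjusted p = 0.227, limma). The ratio of Kcnc1 to Kcnc2 was 2.02 to 2.34 at P25 and 2.43 to 2.90 at P60.

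Syt2 had the highest coefficient of variation over the 12 libraries, at 16.9%, although within P25-WT that of Pvalb was higher (17.3%) and within P60-KO that of Erbb4 (11.4%). It was at 3376, 2655 and 3335 in P25-WT, at 3194, 2847 and 1996 in P25-KO, at 3126, 3903 and 3790 in P60-WT and at 3065, 3539 and 3804 in P60-KO. P25-KO replicate 3 was the lowest library of all, and the ages overlapped. The log2 fold change was 0.30 ± 0.11 (SE, adjusted p = 0.0385, limma). The call was lost without P60-WT replicate 2 (0.29, adjusted p = 0.0727, limma), without P25-KO replicate 3 (0.20, adjusted p = 0.0735) and without P25-WT replicate 2, without replicate 2 or 3 of P60-KO and without P60-WT replicate 3 (0.26 to 0.30, adjusted p from 0.0710 to 0.0910). Without P60-KO replicate 1 it was 0.33 (adjusted p = 0.04, limma).

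Erbb4, the neuregulin receptor gene, was at 2275, 1921 and 2435 in P25-WT, at 2299, 2261 and 2042 in P25-KO, at 2413, 2681 and 2708 in P60-WT and at 2146, 2468 and 2699 in P60-KO. The ages overlapped. The log2 fold change was 0.19 ± 0.07 (SE, adjusted p = 0.0406, limma), and the call was lost without P25-KO replicate 3, replicate 1 or 2 of P25-WT, replicate 2 or 3 of P60-KO, or replicate 2 or 3 of P60-WT (0.14 to 0.20, adjusted p from 0.0589 to 0.0972). With the length and GC trend removed it was −0.07 (adjusted p = 0.273, limma).

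Pvalb itself was at 1168, 1370 and 966 in P25-WT and at 1064, 869 and 1046 in P25-KO. At P60 it was at 1038, 1190 and 957 in WT and at 1089, 1048 and 1038 in KO. The values of both ages were interleaved, with the highest and the lowest library both at P25. The log2 fold change with age was −0.02 ± 0.09 (SE) with a 95% interval from −0.20 to 0.17 and an adjusted p of 0.905 (limma), so a change within that interval was not detectable here. It was −0.04 without P60-WT replicate 2 and also without P60-KO replicate 1.

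Lhx6 was at 647, 658 and 635 in P25-WT, at 598, 628 and 589 in P25-KO, at 589, 528 and 613 in P60-WT and at 532, 631 and 557 in P60-KO. Within WT mice, all P60 libraries lay below all P25 libraries, which 18.4% of all genes tested in WT did. Over both genotypes the log2 fold change was −0.12 ± 0.06 (SE) and did not pass the threshold (adjusted p = 0.118, limma). The exact permutation test of this gene alone, which is not adjusted over genes, gave p = 0.0350 (two-sided, within genotypes). Among the other genes that test gave 0.0100 for Gad2 and Slc32a1, 0.00500 for Kcnc1, 0.0350 for Syt2 and Erbb4, 0.170 for Kcnc2 and 0.905 for Pvalb. Without P60-KO replicate 2 Lhx6 was called by limma, at −0.16 (adjusted p = 0.0447, limma).

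Across all genes, the age difference followed transcript length and GC content. The median log2 fold change over both genotypes went from −0.12 in the fifth of genes with the shortest transcripts to 0.11 in that with the longest, and from 0.14 in the fifth of lowest GC content to −0.15 in that of the highest. Slc32a1 was at percentile 98.0 of GC content, Erbb4 was at percentile 98.9 of length and 8.81 of GC content, and Gad2 at percentile 85.5 of length. Kcnc1 was at percentile 94.0 of length and 88.2 of GC content, Syt2 at percentile 91.2 of length, and Gad1 at percentile 58.1 of length. None of Slc32a1, Gad2 and Erbb4 was called after the dependence on length and GC content was removed from each library.

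Kcnc1, Gad1 and Syt2 were still called higher after that removal. Kcnc1 was at 0.25 (adjusted p = 5.22e-05, limma), Gad1 at 0.12 (adjusted p = 0.0324) and Syt2 at 0.27 (adjusted p = 0.0416). Kcnc2 was then called lower, at −0.19 (adjusted p = 0.00716, limma). Lhx6 went from −0.12 to −0.01 and Pvalb from −0.02 to 0.06, and neither was called. The median of the 9 genes went from 0.17 to 0.06. The distance between Kcnc1 and Kcnc2 was wider after the removal, and those between Gad1 and Slc32a1 and between Gad2 and Slc32a1 were smaller.

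**Figure D3:**
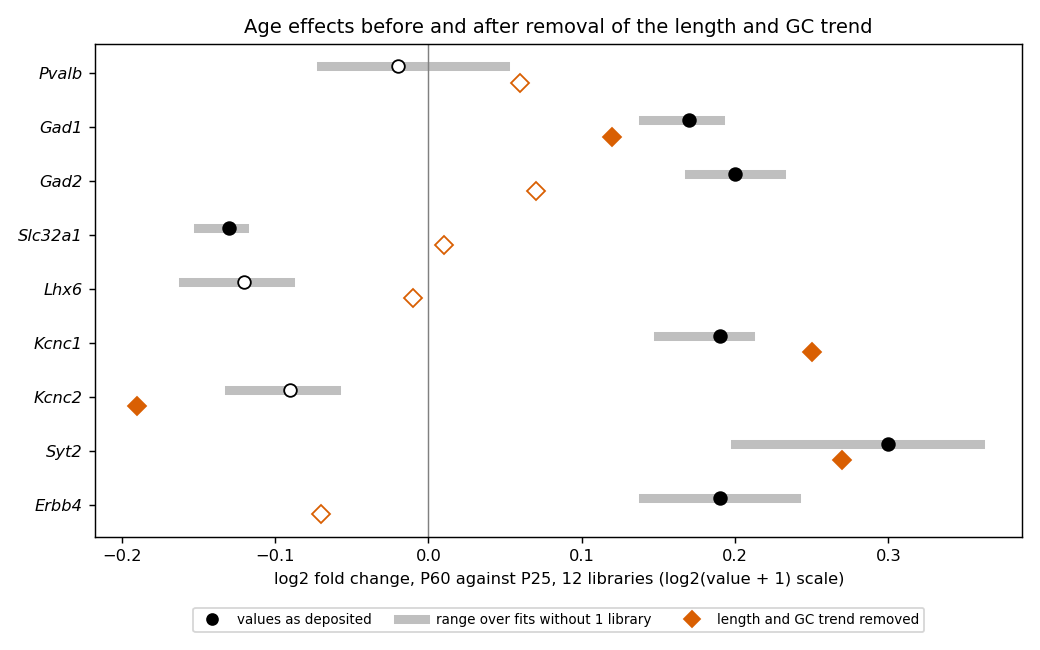
Log2 fold change of P60 against P25 over 12 libraries (horizontal axis, on the log2(value + 1) scale) for the 9 genes, as deposited (circles), over the fits without 1 library (grey bars, lowest to highest) and after the length and GC trend was removed from each library (diamonds). Filled symbols have an adjusted p under 0.05. Slc32a1, Erbb4 and Pvalb crossed 0 after the removal, Kcnc1 went from 0.19 to 0.25 and Kcnc2 from −0.09 to −0.19.

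Within a single genotype each test had 6 libraries. In WT mice, 0 of the 9 genes were called (limma), where 8.65% of 17581 genes were, and 3 of 9 had an unadjusted p under 0.05 (Gad1, Gad2 and Erbb4), where 28.9% of all genes did. Gad2 was nearest, at 0.24 ± 0.07 (SE, adjusted p = 0.0673, limma), and Gad1 was at 0.21 ± 0.07 (adjusted p = 0.0935). Both, with Kcnc1, had all P60-WT libraries above all P25-WT libraries, which 17.6% of all genes did. In KO mice, 1 of 9 was called, Kcnc1 at 0.19 ± 0.06 (SE, adjusted p = 0.0403, limma), where 20.7% of 17596 genes were, and its P60-KO libraries lay above its P25-KO libraries, as for 18.9% of all genes. That call was lost without any 1 of 5 of the 6 libraries, the exception being P25-KO replicate 2, with adjusted p-values of 0.0693 to 0.120. Slc32a1 was at −0.15 ± 0.05 in KO mice (adjusted p = 0.0806, limma), with all P60-KO libraries below all P25-KO libraries, as for 20.5% of all genes.

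The comparison of KO with WT asked whether loss of Shank3 exons moved the same genes. None of the 9 was called at P25, where 0.00571% of 17515 genes were (1 gene, Shank3), and none at P60, where 0.00568% of 17610 genes were (again Shank3). At P25 the count over all genes was 57 with sample quality weights, 8 without P25-WT replicate 1, 2 without P25-KO replicate 3, and 0 without the variance trend, with the replicate block, with the length and GC trend removed, or without replicate 1 or 2 of P25-KO. At P60 it was between 0 and 3. At an unadjusted p under 0.05 there were also 0 of 9 at either age, against 238 (1.36%) and 440 (2.5%) of all genes. Every adjusted p of the 9 genes was 1 at both ages (limma), and 0 of 702 recomputed genotype and interaction values of these genes was called under any alternative. The study, with DESeq2 and an adjusted p under 0.05, reported small sets of genes beside Shank3 at each age. Shank3 as the only gene called is therefore a result of the limma fit used here.

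At P25, Syt2 and Pvalb had the largest differences, with log2 fold changes of KO against WT of −0.24 ± 0.17 and −0.23 ± 0.14 (SE). The 95% intervals ran from −0.62 to 0.14 for Syt2 and from −0.54 to 0.09 for Pvalb. With 1 library left out, Syt2 ranged from −0.38 without P25-KO replicate 1 to −0.04 without P25-KO replicate 3. Pvalb was at −0.10 without P25-WT replicate 2, at −0.13 without P25-KO replicate 2 and at −0.36 without P25-WT replicate 3, where its adjusted p was 0.965 (limma). Lhx6 was at −0.10 ± 0.08, and its P25-KO libraries (598, 628 and 589) all lay below the P25-WT libraries (647, 658 and 635), as for 2.5% of all genes. The two-sided exact permutation p for Lhx6 was 0.1, the smallest that 3 against 3 libraries allow. The other 6 genes were between −0.01 and 0.08.

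At P60 the 9 genes were between −0.10 (Erbb4, 95% interval −0.29 to 0.10) and 0.03 (Slc32a1, −0.09 to 0.16). Over all alternatives Erbb4 ran from −0.17 to −0.01 and Slc32a1 from −0.00 to 0.07, and neither was called in any. Pvalb was at 0.00 ± 0.08 (SE), with an interval from −0.19 to 0.19, at 0.09 ± 0.07 without P60-WT replicate 2 and at −0.02 ± 0.10 without P60-KO replicate 1. Kcnc1 had the narrowest interval, from −0.10 to 0.09, and was at 0.00 and 0.01 with these libraries left out in turn. Syt2 was at −0.05 ± 0.10 (SE), and at 0.01 and 0.03 in the same order. With both ages together 0 of 9 were called (limma), where 0.00568% of genes were, and 0 of 9 had an unadjusted p under 0.05, where 361 genes (2.05%) did.

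The genotype by age interaction asked whether the age change differed between KO and WT. It was called for 0 of the 9 genes and for 0 of 17594 genes (0% of genes, limma), with 0 of 9 and 288 genes (1.64%) at an unadjusted p under 0.05. Pvalb had the largest interaction of the 9, at 0.23 ± 0.17 (SE) with a 95% interval from −0.15 to 0.60. With 1 library left out it ran from 0.10 without P25-WT replicate 2 to 0.36 without P25-WT replicate 3 (adjusted p = 0.941, limma). It was 0.13 without P25-KO replicate 2, 0.15 without P60-WT replicate 3, 0.31 without P60-WT replicate 2 and 0.20 without P60-KO replicate 1. For Kcnc1 the interaction was 0.00 ± 0.11, and 0.01 and 0.02 with these P60 libraries left out in turn. For Syt2 it was 0.18 ± 0.22, and 0.25 and 0.27 in the same order. Over all libraries left out in turn it ran from −0.01 without P25-KO replicate 3 to 0.33 without P25-KO replicate 1.

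**Figure D4:**
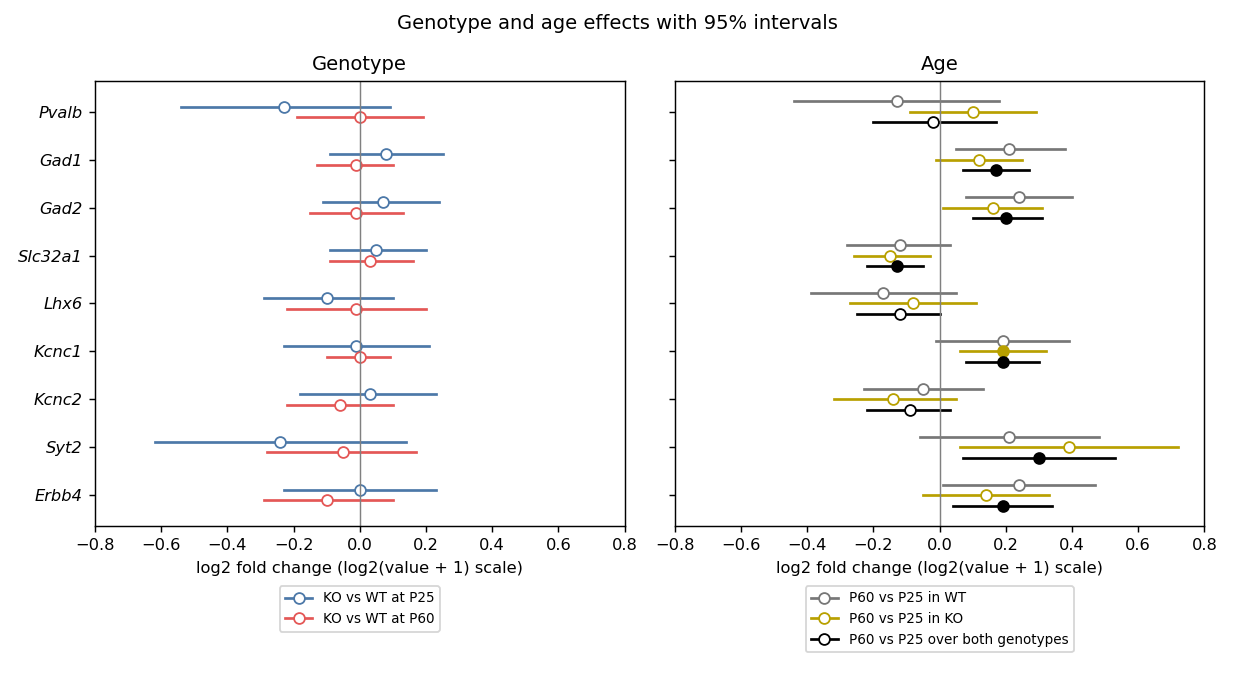
Log2 fold change (horizontal axis, on the log2(value + 1) scale) of KO against WT at each age (left) and of P60 against P25 in WT, in KO and over both genotypes (right) for the 9 genes. Lines are 95% intervals and filled circles have an adjusted p under 0.05. All genotype intervals include 0, and the filled circles are the 6 genes over both genotypes and Kcnc1 in KO.

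Lists of related genes, 6 in all, were read in the same age comparison over both genotypes beside the 37.6% of all genes called and an all-gene median of 0.00. Of 14 genes of GABA uptake, GABA breakdown and glutamine supply, 7 were higher and 3 lower, with a median log2 fold change of 0.14. The neuronal glutamine transporters Slc38a1 and Slc38a2 were at 0.30 ± 0.05 (SE, adjusted p = 0.000439, limma) and 0.38 ± 0.09 (adjusted p = 0.00406). Slc38a5, another glutamine transporter, was at −0.71 ± 0.16 (adjusted p = 0.0034, limma). With the length and GC trend removed, 6 were higher and 3 lower, and Slc38a1 was at 0.21, Slc38a2 at 0.25 and Slc38a5 at −0.63.

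Of 14 other genes of parvalbumin cells, 7 were higher and 3 lower, with a median of 0.14. Scn1a, the sodium channel of fast-spiking cells, was at 0.37 ± 0.05 (adjusted p = 0.000111, limma), Kcna2, a potassium channel of axons, at 0.34 ± 0.06 (adjusted p = 0.000732) and Ppargc1a, a coactivator of mitochondrial genes, at 0.24 ± 0.07 (adjusted p = 0.0119). Cox6a2, a respiratory chain subunit, was at −0.75 ± 0.12 (adjusted p = 0.000341, limma). With the length and GC trend removed, 5 were higher and 1 lower, with a median of 0.07. Scn1a was then at 0.18, Kcna2 at 0.16 and Cox6a2 at −0.58, and Ppargc1a was no longer called, at 0.06. Without P60-WT replicate 2, 6 were higher and 2 lower.

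Of 12 genes that mark other interneuron classes, 1 was higher and 6 lower, with a median of −0.20. The count of lower genes was also 6 under scaling to the same total and after the removal of the trend, where the median was −0.14. The neuropeptide genes Npy, Cck and Sst were at −0.52 ± 0.08 (SE, adjusted p = 0.000175, limma), −0.35 ± 0.06 (adjusted p = 0.000425) and −0.45 ± 0.10 (adjusted p = 0.00246). The serotonin receptor gene Htr3a was at −0.41 ± 0.08 (adjusted p = 0.00113, limma). With the trend removed, Npy was at −0.33, Cck at −0.11, Sst at −0.22 and Htr3a at −0.31. Cck is also made by glutamatergic neurons.

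Of 19 interneuron transcription factors, 0 were higher and 6 lower (limma), with a median of −0.06. Npas1, Npas3 and Nr2f2 were at −0.33 ± 0.07 (SE, adjusted p = 0.00131), −0.57 ± 0.13 (adjusted p = 0.00428) and −0.32 ± 0.08 (adjusted p = 0.00465). Satb1, which acts in interneurons from the same origin as parvalbumin cells, was at −0.19 ± 0.05 (adjusted p = 0.00678, limma). Under scaling to the same total, 2 were higher and 4 lower, with a median of −0.02. With the trend removed 2 were higher and 6 lower, with a median of −0.01, and Npas1 was at −0.19 and Satb1 at −0.32.

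Of 17 synaptotagmins and genes of fast release, 3 were higher and 8 lower, with a median of −0.08, and 5 were higher and 6 lower under scaling to the same total. With the length and GC trend removed, 3 were higher and 6 lower and the median was 0.02. The SNARE genes Stx1a and Vamp2 were at −0.52 ± 0.04 (SE, adjusted p = 2.30e-07, limma) and −0.27 ± 0.03 (adjusted p = 1.75e-05). Syt11 and Syt3, other members of the family of Syt2, were at −0.27 ± 0.03 (adjusted p = 3.05e-05, limma) and −0.32 ± 0.04 (adjusted p = 5.30e-05). With the trend removed, Stx1a was at −0.36, Vamp2 at −0.18, Syt11 at −0.30 and Syt3 at −0.17. Of the 7 neuregulins and other ErbB receptors, 0 were called (limma), with a median of −0.09, against 1 higher under scaling to the same total and 1 lower with the trend removed. No gene of the 6 lists was called in a comparison of KO with WT or in the interaction.

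**Figure D5:**
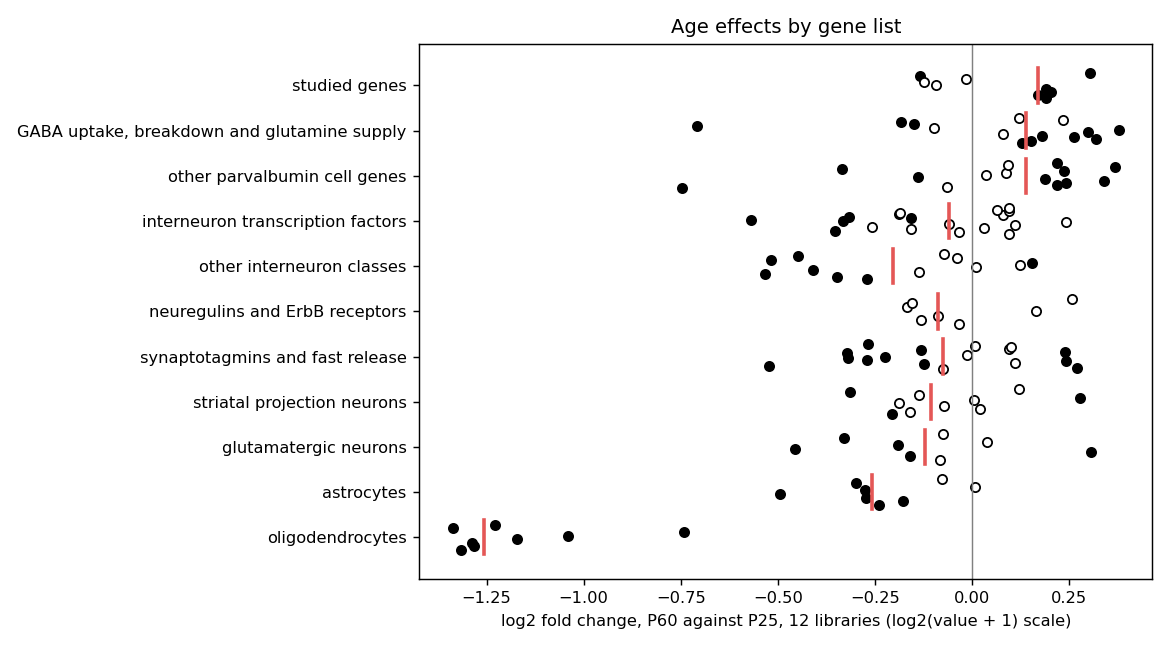
Log2 fold change of P60 against P25 over 12 libraries (horizontal axis, on the log2(value + 1) scale) for the genes of each list, 1 point per gene, filled where the adjusted p was under 0.05, with the list median as a red line. Of the lists plotted, the 8 oligodendrocyte markers had the lowest median, −1.26, and the 9 studied genes had a median of 0.17, which was 0.06 with the length and GC trend removed.

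Likeness to Pvalb and to Gad1 was described over 12 libraries that share their age and genotype groups and their normalization, among 12231 genes with a mean of at least 100. For Pvalb, the highest Pearson correlations of log2 values were with Zc3h14 (0.90), Actl6a (0.89), Tprgl (0.89), Snu13 (0.88) and Pithd1 (0.88). After the 4 group means were subtracted they were with Iscu (0.96), Paxx (0.95), Eva1a (0.94), Ahcy (0.94) and Ergic3 (0.94), and with Kcnc1 the correlation was −0.71. For Gad1 the highest were Scaf8 (0.98), Sdha (0.96), Scaf11 (0.95), Cnnm1 (0.94) and Hnrnph2 (0.94), and after subtraction Psap (0.97), Scaf8 (0.95), Sema3d (0.95), Clstn1 (0.94) and Ogdh (0.93). Within groups, Gad1 had a correlation of 0.82 with Slc32a1, 0.79 with Kcnc1, 0.56 with Gad2 and −0.49 with Pvalb. P25-WT replicate 2 was the extreme P25-WT library for all 9 genes, with the highest Pvalb and Lhx6 values and the lowest values of the other 7.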

How the data were processed

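Per the labels and the study's methods, libraries made with the TruSeq RNA Sample Prep Kit v2 were quantified by the authors with Salmon 1.1.0 with GC bias correction, imported with tximport and normalized with DESeq2. The submitters' processing notes list DESeq2 1.26.0, R 3.6.2 and GRCm38. The annotation release is not given in the sources used here. The deposited values are signal on a count scale, normalized over 12 libraries, and are not whole reads (0.2% whole within 0.001), so no count model was used, depth is unknown, and 3 libraries per group limit the precision. Symbols came from GENCODE M21, in which 19252 of 19268 identifiers were found.

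Groups and replicate numbers came from the sample titles. Genes whose mean was at least 10 entered a linear model on log2(value + 1), fitted with lmFit and eBayes (intensity trend) of limma 3.58.1 under R 4.3.3, a scale that understates changes of low genes. A Benjamini-Hochberg adjusted p under 0.05 over all genes tested made a call. Permutation tests were exact and two-sided. The fitting code was tested on simulated data.

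The 9 genes, the lists and the alternatives were chosen with earlier results of these data known. Named genes were the 9, Shank3, up to 4 called genes per list with the smallest adjusted p, and the 5 genes most like Pvalb or Gad1. Outside this rule, Tbr1, Cbln3 and Gabra6 were named as tissue markers, and some genes were named because they overlap or share words with the 9. Some genes that this rule names are not reported here. Alternatives changed the pseudocount, minimum mean, scaling, variance trend, weights, block, libraries in the fit, or removed a spline trend (5 degrees of freedom each) on transcript length and GC content. List results under other settings were added after seeing the data.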

Additional observations from a re-analysis of the deposited data

How the results depend on the processing

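Over both genotypes, 6 of the 9 genes were called with age, and between 4 and 6 when 1 library was left out. The count was 4 with the replicate number as a block, with no variance trend, with sample quality weights and with the length and GC trend removed, and 5 with libraries scaled to the same total. The labels do not say whether the replicate numbers pair the libraries. The correlations of same-numbered deviations ran from −0.07 to 0.17, which cannot decide it with 3 libraries per group. With the block, Syt2 and Erbb4 were not called (adjusted p = 0.0612 and 0.0554, limma). With the length and GC trend removed, Slc32a1 was at 0.01 and Erbb4 at −0.07, of the opposite sign but not called.

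In WT mice, where 0 genes were called, there were 1 with scaling to the same total (Gad2), 4 with sample quality weights, 1 with the length and GC trend removed (Kcnc1) and 2 with all 12 libraries in 1 fit (Gad1 and Gad2), and 0 to 1 without 1 library. In KO mice, where 1 was called, there were 0 without the variance trend, 0 with the replicate block, 0 with all 12 libraries in 1 fit, 2 with sample quality weights and 0 to 1 without 1 library. The causes were not tested. Of all genes, 1521 were called in WT mice, against 192 without the variance trend, 8250 with weights, 3442 in the joint fit and 122 to 2403 without 1 library, the lowest without P60-WT replicate 3. In KO mice 3641 were called, against 1725 without the trend and 2093 to 3230 without 1 library. No genotype count of the 9 genes left 0 under any alternative. Of 1206 recomputed values of the 9 genes, 1097 kept their direction and side of the threshold.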
